A study of Mus musculus with 6 samples.

Results

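The genes described here encode the proteasome, and 45 of the 15553 genes in the deposited table belong to them: protein-coding genes whose symbol starts with Psm, one of the letters a to f, and a digit. By the known role of their products, 14 encode the constitutive 20S core (Psma1 to Psma7 and Psmb1 to Psmb7), 3 the immunoproteasome subunits (Psmb8, Psmb9 and Psmb10), 6 the 19S ATPases (Psmc1 to Psmc6) and 11 the other 19S subunits (Psmd genes). A further 3 encode chaperones that assemble the base of the 19S particle (Psmd5, Psmd9 and Psmd10), and 5 encode activators of the core or PI31, a protein named as an inhibitor of it (Psme1, Psme2, Psme3, Psme4 and Psmf1). The remaining 3 matched the symbol rule and were kept apart. Psma8 encodes an alpha subunit of the testis proteasome, Psme2b is a near-identical copy of Psme2, and Psmc3ip encodes a meiotic recombination protein that is not a proteasome subunit.

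The libraries were made from bone marrow stem and progenitor cells, lineage-negative, Sca1-positive and c-Kit-positive, of C57BL/6 mice aged 6 to 8 weeks, with 3 libraries labelled Yy1 knockout (Yy1f/f;Mx1-Cre) and 3 labelled wild type (Mx1-Cre). Both groups thus carried Mx1-Cre, a recombinase under an interferon-inducible promoter that acts in many interferon-responsive cells and not in blood cells alone, and the sources used here do not give the agent that induced it. The protocols name CD48-negative cells both with and without CD150, and the source field names the cells with CD150. Nothing in the labels says that each library came from its own mouse, so p-values measure the spread between these libraries, which may be partly technical. Yy1 itself (ENSMUSG00000021264, chromosome 12: 108792973 to 108820148) stood at 36.2, 16.6 and 28.5 RPKM, reads scaled to exonic length and library size, in knockout replicates 1 to 3, against 31.6, 42.3 and 52.1 RPKM in wild type replicates 1 to 3. The library labelled Yy1 knockout replicate 1 therefore lay inside the wild-type range at the targeted gene, and every value called knockout below includes it. Estimated from RPKM and exonic length, between 15102998 and 21757053 reads per library fell in the listed genes. These estimates exceed the library sizes recovered from the same values, 1.29e+07 to 1.95e+07, and so may be too high. Wild type replicate 3 had the most genes at 0, 1991 of them.

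The proteasome is the protease that degrades most short-lived and ubiquitin-tagged proteins of a cell. Its 20S core is a barrel of stacked rings of alpha and beta subunits, in which the beta subunits of Psmb5, Psmb6 and Psmb7 carry the chymotrypsin-like, caspase-like and trypsin-like active sites. The 19S particle caps the barrel, binds ubiquitin chains and unfolds substrates with its ATPase ring. In cells of the immune system, and in other cells after interferon gamma, Psmb8, Psmb9 and Psmb10 take the places of Psmb5, Psmb6 and Psmb7 in newly built cores, which changes the peptides made for MHC class I presentation. Hematopoietic stem cells are known for a low rate of protein synthesis and for being sensitive to a disturbed balance of protein making and breakdown.

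Promoter sequences of RefSeq (build GRCm38.p6) were found by symbol for 38 of the 45 genes, as windows of 250 bases before to 50 bases after the transcription start. Shown are the 250 bases before the start for the 4 genes with an unadjusted p under 0.05 between genotypes (Psma5, Psma1, Psmd8 and Psmc6), and for one constitutive and inducible pair of catalytic subunits (Psmb5 and Psmb8). In this order they lie at chr3:108256676-108256925 on the plus strand, chr7:114276117-114276366 on the minus strand, chr7:29180674-29180923 on the minus strand, chr14:45329574-45329823 on the plus strand, chr14:54617996-54618245 on the minus strand and chr17:34197945-34198194 on the plus strand. Each reads 5′ to 3′ in the direction of transcription. The starts are those of RefSeq and can differ from the gene positions given below. The Psmb8 stretch lies wholly inside the gene position given for Psmb8, downstream of its first base. Those of Psma1, Psmd8, Psmc6 and Psmb5 run into the gene positions at their ends. Capitals mark matches on either strand to TGACNNNGC (the core of the antioxidant response element, bound by NRF1 and NRF2, of which NRF1 is known to drive proteasome genes), to CCAAT (the NF-Y box) or to ATGGCG (the core of the YY1 motif).
Psma5: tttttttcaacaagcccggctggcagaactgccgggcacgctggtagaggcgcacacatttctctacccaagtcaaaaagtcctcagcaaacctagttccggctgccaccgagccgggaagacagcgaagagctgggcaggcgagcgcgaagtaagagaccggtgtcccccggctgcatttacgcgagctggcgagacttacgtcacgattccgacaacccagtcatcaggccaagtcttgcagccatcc
Psma1: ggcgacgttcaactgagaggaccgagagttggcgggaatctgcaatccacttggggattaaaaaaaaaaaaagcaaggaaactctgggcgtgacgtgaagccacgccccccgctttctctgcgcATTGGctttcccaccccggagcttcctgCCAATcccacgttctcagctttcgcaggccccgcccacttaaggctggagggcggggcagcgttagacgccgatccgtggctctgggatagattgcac
Psmd8: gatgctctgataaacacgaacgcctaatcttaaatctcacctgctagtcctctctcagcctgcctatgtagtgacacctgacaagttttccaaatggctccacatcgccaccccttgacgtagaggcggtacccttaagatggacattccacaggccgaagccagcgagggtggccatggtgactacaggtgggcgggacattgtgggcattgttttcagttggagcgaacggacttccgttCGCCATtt
Psmc6: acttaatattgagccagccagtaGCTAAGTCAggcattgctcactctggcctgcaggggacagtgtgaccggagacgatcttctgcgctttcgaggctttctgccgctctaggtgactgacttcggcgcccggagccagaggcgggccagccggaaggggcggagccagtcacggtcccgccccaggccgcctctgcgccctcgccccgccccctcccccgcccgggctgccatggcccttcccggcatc
Psmb5: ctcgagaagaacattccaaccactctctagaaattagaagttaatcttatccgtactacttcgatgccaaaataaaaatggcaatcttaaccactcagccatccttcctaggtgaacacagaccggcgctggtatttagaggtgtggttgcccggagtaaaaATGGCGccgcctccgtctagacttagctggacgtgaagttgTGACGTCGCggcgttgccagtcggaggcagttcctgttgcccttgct
Psmb8: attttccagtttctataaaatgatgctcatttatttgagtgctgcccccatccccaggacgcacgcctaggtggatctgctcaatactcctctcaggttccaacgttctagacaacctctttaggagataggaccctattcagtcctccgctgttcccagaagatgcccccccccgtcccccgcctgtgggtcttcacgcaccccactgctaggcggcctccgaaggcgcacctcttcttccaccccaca

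None of the 3 motifs occurred in the 250 bases of Psma5 or Psmb8. Psma1 held CCAAT on each strand, Psmd8 held the YY1 core on the minus strand close to the start, Psmc6 held the antioxidant response core on the minus strand, and Psmb5 held both the antioxidant response core and the YY1 core. Over the whole windows, the YY1 core was found in 11 of the 38 genes (28.9%), against 19.2% of the 8423 tested genes in the promoter table and 10.2% of all 27025 genes there. The antioxidant response core was found in 6 of the 38 (15.8%), against 17.2% of the tested genes and 13.99% of all genes. CCAAT was found in 14 of the 38 (36.8%), against 43.3% of the tested genes and 41.1% of all genes. Matches to CCAAT and ATGGCG can share letters, and no proteasome gene held both. A match is a run of letters, not a shown binding site. In the 250 bases before the start alone, the share with the YY1 core was 18.4% of the 38 genes, against 11.3% of the tested genes, since several matches lie after the start.

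**Figure D1:**
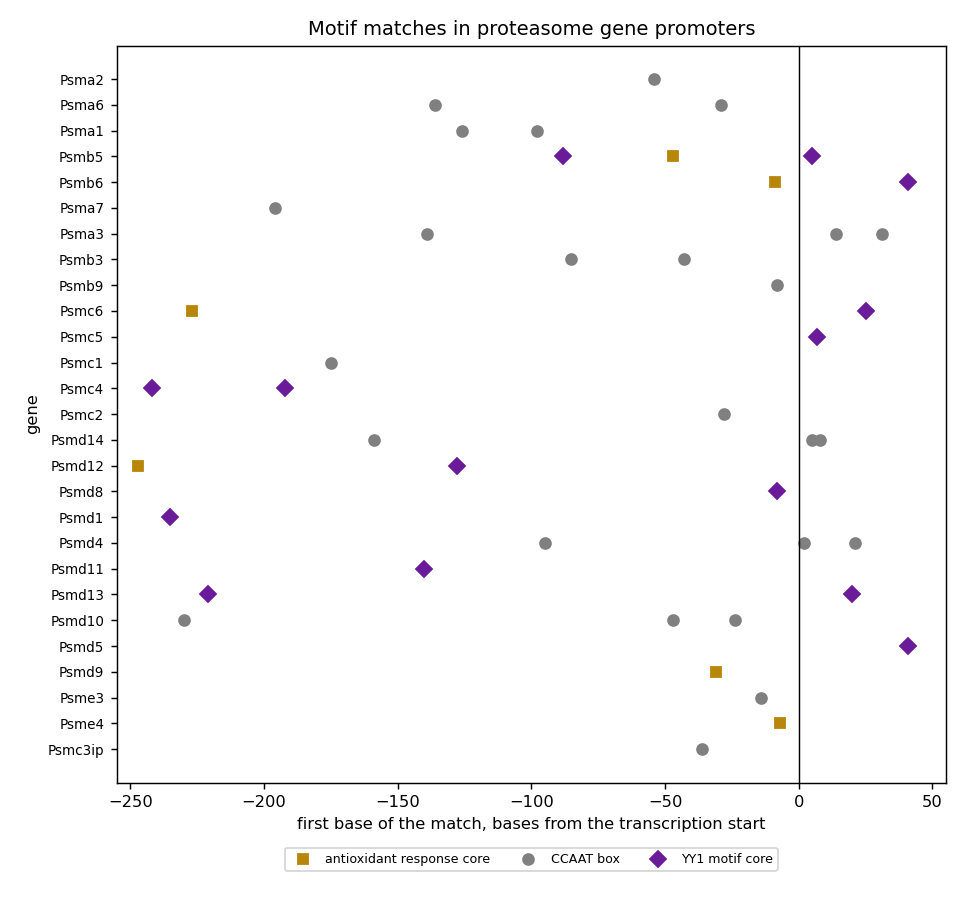
Matches to the 3 motifs in the windows of the 27 proteasome genes that have at least 1, with the distance of the first matched base from the transcription start in bases on the x axis and 1 gene per row. The 11 genes with a YY1 core are spread over core, ATPase, other 19S and chaperone genes, and where RefSeq has several windows for a gene they are drawn on 1 row.

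In the knockout libraries most proteasome genes had somewhat higher levels than in the wild-type libraries, but no single gene passed the test. Of the 45 genes, 32 (71.1%) had a log2 fold change above 0, against 51.9% of the 13179 genes tested. The 32 include all 3 genes kept apart, of which Psmc3ip is not a proteasome subunit and Psma8 and Psme2b have uncertain values. On the log2(RPKM + 0.5) scale, the median difference of knockout from wild type, called log2 fold change here, was 0.21 over the 45 genes and 0.02 over all genes tested. All 45 reached 1 RPKM in 3 or more libraries, the filter for testing. With limma and Benjamini-Hochberg adjustment over all genes tested, 0 of the 45 had an adjusted p under 0.05, as did 0% of all genes, and the smallest adjusted p of the 45 was 0.451, for Psma5. At an unadjusted p under 0.05, 4 of the 45 (8.89%) were higher in knockout and 0 were lower, against 4.73% and 3.06% of all genes tested. In 8 of the 45 (17.8%) the 3 knockout values lay above the 3 wild-type values, against 7.63% of all genes tested, and in 1 (2.22%) they lay below, against 6.87%. Limma-voom on reads recovered from the RPKM values called 0 of the 45 and 0.061% of its 13114 genes. The authors' deposited table called 0 of the 45 at an adjusted p under 0.05, against 0.154% of its genes, and listed 6 of the 45 at an unadjusted p under 0.05, all of them higher in knockout, against 4.61% of its genes higher and 3.41% lower.

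**Figure D2:**
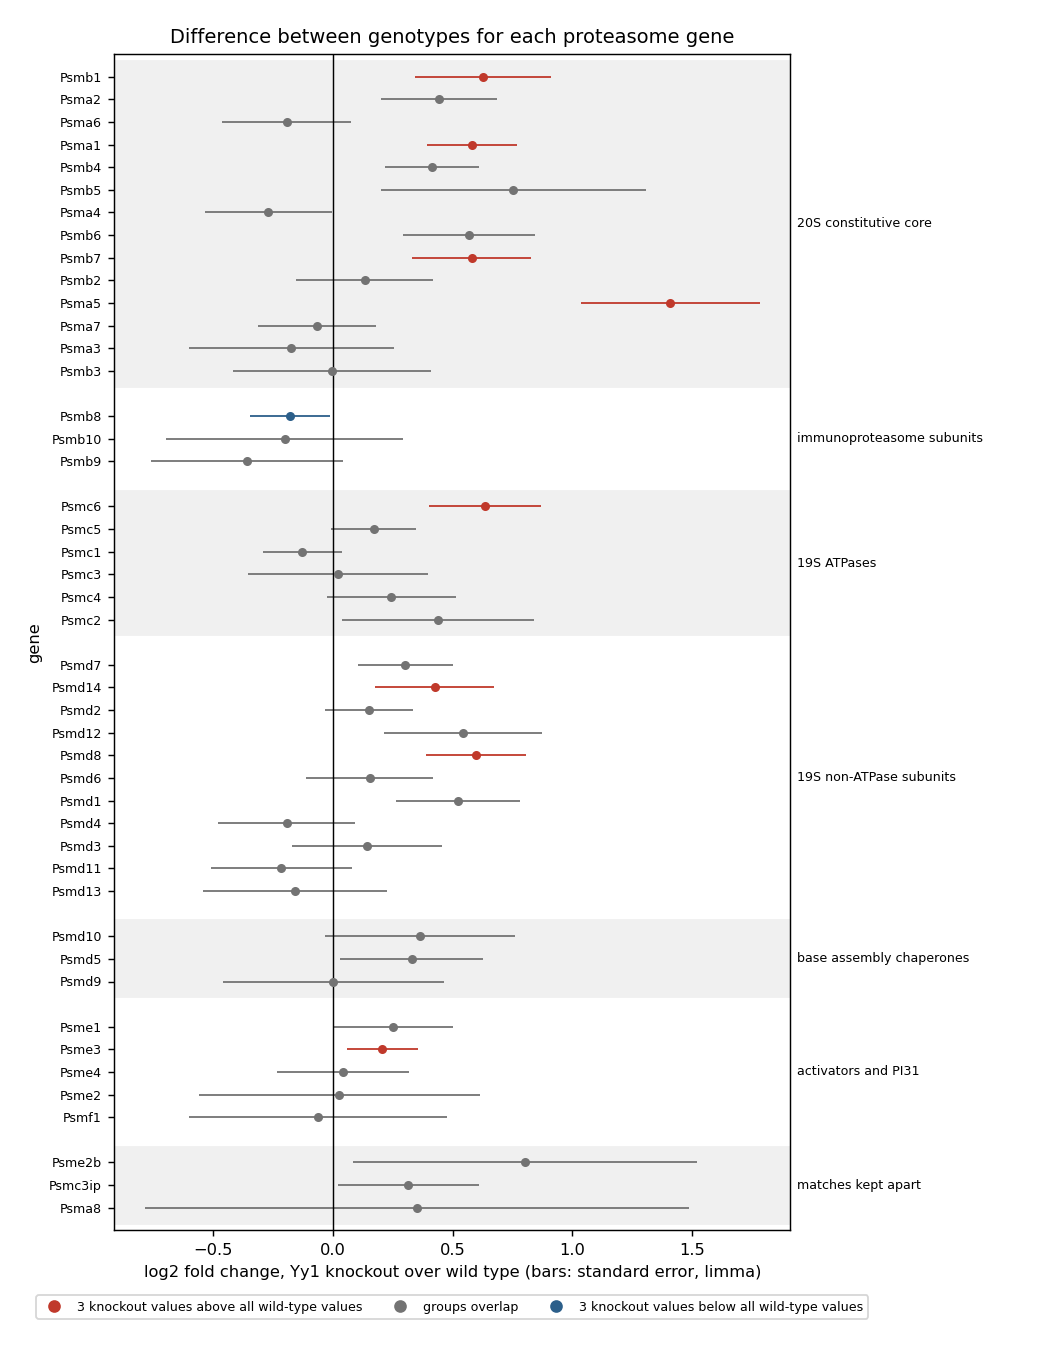
Log2 fold change between Yy1 knockout and wild type for each of the 45 genes, by class, with the standard error of the limma fit as bars. Points are red where the 3 knockout values lie above all wild-type values (8 genes), blue where they lie below (Psmb8) and grey where the groups overlap.

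In the constitutive 20S core, 9 of 14 genes lay above 0, their log2 fold changes having a median of 0.43, and in 4 all knockout values lay above all wild-type values, against 51.9% above 0 and 7.63% without overlap among all genes tested. In the 19S particle, 5 of 6 ATPase genes lay above 0 with a median of 0.21, and 8 of 11 other subunit genes with a median of 0.15. All 3 immunoproteasome genes lay below 0, with a median of -0.20. The activator and PI31 genes had a median of 0.04 with 4 of 5 above 0, and the 3 chaperone genes had a median of 0.33 with all 3 above 0. As a mean over the 14 core genes, the libraries lay 0.38, 0.20 and 0.45 log2 units above the wild-type mean in knockout replicates 1 to 3, against -0.13, 0.00 and 0.12 in wild type replicates 1 to 3. The groups did not overlap in this class mean, while in the ATPases knockout replicate 3 at 0.38 lay next to wild type replicate 3 at 0.37. Over all genes tested, the mean was 0.03, 0.12 and 0.05 in knockout replicates 1 to 3. In wild type replicates 1 to 3 it was 0.03, 0.08 and -0.11. Measured from these means, the core of wild type replicate 3 lay above that of knockout replicate 2, so the groups then overlapped. No p was computed for these class means.

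**Figure D3:**
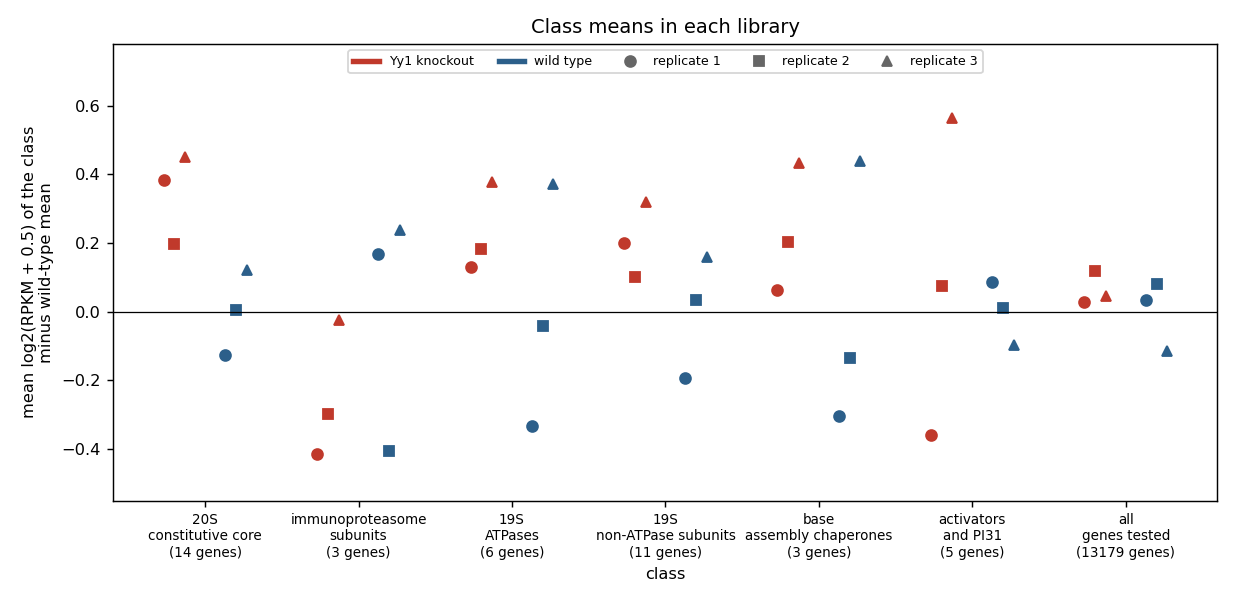
Mean of log2(RPKM + 0.5) over the genes of each class in each library, minus the wild-type mean, with knockout to the left of wild type and marker shapes for replicate numbers. The core means of the 3 knockout libraries (0.20 to 0.45) lie above those of the 3 wild-type libraries (-0.13 to 0.12), and the other classes overlap. Measured from the means of all genes tested, the core groups overlap too.

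Among the alpha subunit genes of the core, Psma5 and Psma1 stood apart. Psma5 (ENSMUSG00000068749, chromosome 3: 108256926 to 108279974), a subunit of the outer ring, stood at 37.5, 17.6 and 41.1 RPKM in knockout replicates 1 to 3, against 11.9, 13.9 and 8.09 RPKM in the wild-type replicates. All 3 knockout values lay above all wild-type values, with the second knockout library closest to wild type. The means were 32.1 ± 12.7 RPKM in knockout and 11.3 ± 2.95 RPKM in wild type (SD, n = 3 each, as for all means below), and the log2 fold change was 1.41, with SE, the standard error of the limma fit, at 0.37. Its limma p was 0.00600 unadjusted and 0.451 adjusted. The lowest library had 158 recovered reads. The transcripts of GENCODE M21 hold 2 copies of Psma5 elsewhere in the genome, the closer with an aligned stretch of 98.6% identity, and the exons of 1700010K24Rik on the other strand overlap it, so its reads may be shared with these.

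Psma1 (ENSMUSG00000030751, chromosome 7: 114264606 to 114276118) had no such copy. It stood at 93.1, 73.4 and 95.98 RPKM in knockout, against 66.3, 51.0 and 57.4 RPKM in wild type. The groups did not overlap, and the log2 fold change was 0.58 (SE 0.19, limma adjusted p = 0.559, unadjusted 0.0152). Psma2 averaged 114 ± 33.9 RPKM in knockout and 82.1 ± 13.8 RPKM in wild type, with overlap. The other alpha genes, Psma3, Psma4, Psma6 and Psma7, had log2 fold changes from -0.27 to -0.07, all with overlap between genotypes. Psma3 was the lowest of the alpha genes, at 5.59 ± 1.73 RPKM in knockout and 6.59 ± 3.11 RPKM in wild type. It has 4 copies elsewhere in the genome, the closest with a stretch of 100% identity, and reads that fit several places can be lost or split.

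Among the beta subunit genes without an active site, Psmb1 (ENSMUSG00000014769, chromosome 17: 15475021 to 15499751) had the highest mean level of all 45 genes. It stood at 129, 132 and 225 RPKM in knockout, against 74.9, 121 and 113 RPKM in wild type. The knockout values lay above the wild-type ones, the lowest of them close to the highest wild-type value. Its log2 fold change was 0.63 (SE 0.28, limma adjusted p = 0.657), and it was 0.42 when wild type replicate 1 was left out and 0.37 when knockout replicate 3 was left out. Psmb4 averaged 70.1 ± 9.29 RPKM in knockout and 52.6 ± 9.07 RPKM in wild type, with overlap, and Psmb2 averaged 29.2 ± 8.48 and 26.2 ± 6.41 RPKM in knockout and wild type. Psmb3 was listed far lower, at 6.13 ± 3.14 RPKM in knockout and 5.73 ± 0.556 RPKM in wild type, and it has 7 copies elsewhere, more than any other of the 45 genes. Although the core holds its subunits in equal numbers, RPKM values differed widely between its genes. The highest of the 14 values of a library was 29.6 to 47.5 times the lowest in knockout and 13.97 to 30.3 times in wild type. Such comparisons between genes depend on the exonic length that RPKM divides by. Over all annotated exons it was 899 bases for Psmb5 and 4595 bases for Psmb1 in the annotation used here.

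**Figure D4:**
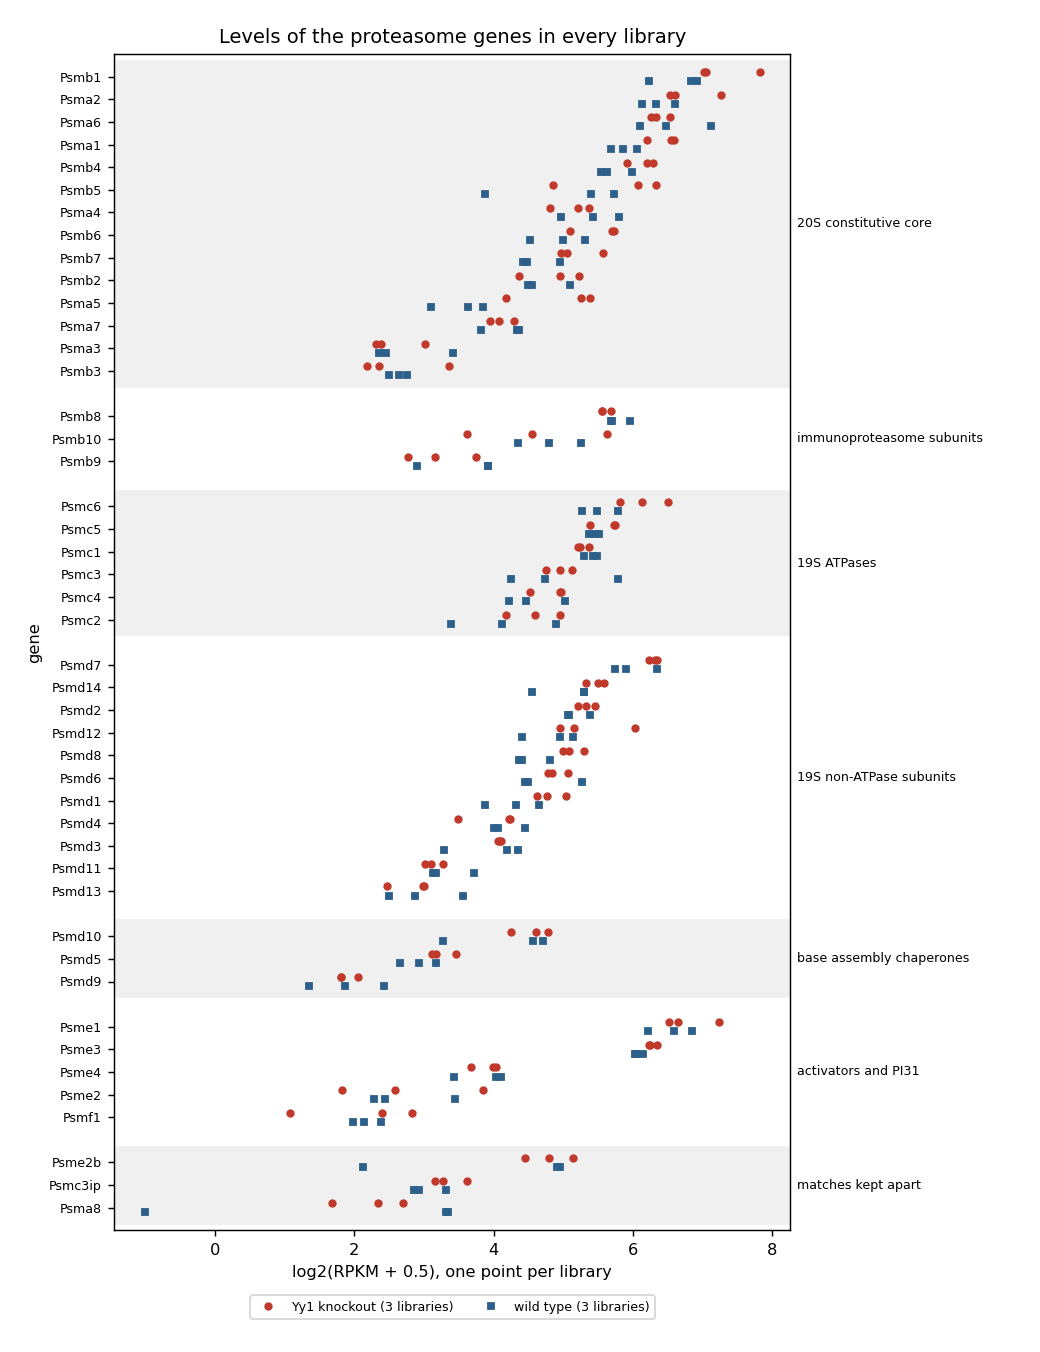
Levels of the 45 genes as log2(RPKM + 0.5), 1 point per library, ordered within each class by mean level, with the knockout points above the wild-type points in each row. Psmb1 is the highest and Psmd9, a chaperone gene, the lowest by mean level, and the wild-type point of Psma8 at the far left is its listed 0.

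The 3 constitutive catalytic genes had higher means in knockout. In 1 of them all knockout values lay above all wild-type values, against 7.63% of all genes tested. Psmb7 (ENSMUSG00000026750, chromosome 2: 38588036 to 38644087), of the trypsin-like site, stood at 32.6, 30.9 and 47.3 RPKM in knockout, against 21.9, 20.9 and 30.5 RPKM in wild type. The lowest knockout value lay just above the highest wild-type value, and the log2 fold change was 0.58 (SE 0.25, limma adjusted p = 0.639). Exons of Nek6 on the other strand overlap Psmb7. Psmb6 (ENSMUSG00000018286, chromosome 11: 70525367 to 70527858), of the caspase-like site, stood at 33.6, 52.8 and 51.7 RPKM in knockout, against 22.4, 31.5 and 39.1 RPKM in wild type. Knockout replicate 1 lay among the wild-type values, and the log2 fold change was 0.57 (SE 0.28, limma adjusted p = 0.677), and 0.36 without wild type replicate 1. Psmb5 (ENSMUSG00000022193, chromosome 14: 54614119 to 54618022), of the chymotrypsin-like site, stood at 79.8, 66.6 and 28.5 RPKM in knockout, against 14.1, 41.8 and 52.3 RPKM in wild type. Its groups overlapped widely, since the lowest value of each stood far from the rest, and without wild type replicate 1 its log2 fold change of 0.75 became 0.19. Psmb5 also has 2 copies elsewhere, the closer with a stretch of 98.9% identity, and Psmb6 has 1, with a stretch of 92.1% identity.

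The 3 inducible genes did not share that direction, though none differed from wild type past the threshold. Psmb8 (ENSMUSG00000024338, chromosome 17: 34197721 to 34201454), which replaces Psmb5, stood at 46.7, 46.7 and 50.8 RPKM in knockout, against 61.8, 50.9 and 51.4 RPKM in wild type. Every knockout value lay below every wild-type value, by a margin of under 1 RPKM at the closest, and the log2 fold change was -0.18 (SE 0.17, limma adjusted p = 0.829), and -0.090 without wild type replicate 1. Psmb9 (ENSMUSG00000096727, chromosome 17: 34181987 to 34187764), which replaces Psmb6, stood at 12.9, 8.44 and 6.37 RPKM in knockout, against 14.7, 7.01 and 14.7 RPKM in wild type. The groups overlapped, and the log2 fold change was -0.36 (SE 0.40, limma adjusted p = 0.860). With 1 library left out it lay between -0.70 (wild type replicate 2 left out) and -0.13 (knockout replicate 3 left out), and each of the other libraries but knockout replicate 2 also moved it by over 1.5 times. Psmb10 (ENSMUSG00000031897, chromosome 8: 105935735 to 105938444), which replaces Psmb7, stood at 11.8, 23.0 and 49.1 RPKM in knockout, against 27.2, 19.99 and 37.8 RPKM in wild type. The knockout values enclosed the wild-type ones, and its log2 fold change of -0.20 was 0.29 without knockout replicate 1. Psmb9 and Psmb8 are neighbours, 9956 bases apart in the MHC region. Exons of Tap1, a peptide transporter gene, overlap Psmb9 on the other strand, and the sources used here do not say whether the authors counted by strand.

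Within a library, the ratio of an inducible to its constitutive subunit hardly depends on how libraries are scaled. The log2 ratio of Psmb8 to Psmb5 was -0.77, -0.51 and 0.82 in knockout replicates 1 to 3, against 2.09, 0.28 and -0.03 in the wild-type replicates. The log2 ratio of Psmb9 to Psmb6 was -1.35, -2.58 and -2.93 in knockout, against -0.60, -2.09 and -1.38 in wild type. The log2 ratio of Psmb10 to Psmb7 was -1.43, -0.42 and 0.06 in knockout, against 0.31, -0.06 and 0.30 in wild type. All 3 ratios had a lower mean in knockout, with differences of -0.93, -0.93 and -0.78 on the log2 scale, and in all 3 the groups overlapped. Exact two-sided permutation tests gave p = 0.4, 0.3 and 0.2 for the 3 ratios in this order, where 0.1 is the smallest that 3 against 3 libraries allow, and Benjamini-Hochberg adjustment over the 3 gave 0.4 for each. The difference for Psmb8 to Psmb5 was -0.28 when wild type replicate 1 was left out and -1.42 when knockout replicate 3 was left out. The difference for Psmb9 to Psmb6 was -0.55 when wild type replicate 1 was left out, and that for Psmb10 to Psmb7 was -0.36 when knockout replicate 1 was left out. Of the summed RPKM of the 6 catalytic genes, the inducible 3 took 32.8%, 34.2% and 45.5% in knockout, against 64.0%, 45.3% and 46.0% in wild type (exact two-sided permutation p = 0.2). The size of this share also depends on the exonic lengths that RPKM divides by.

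**Figure D5:**
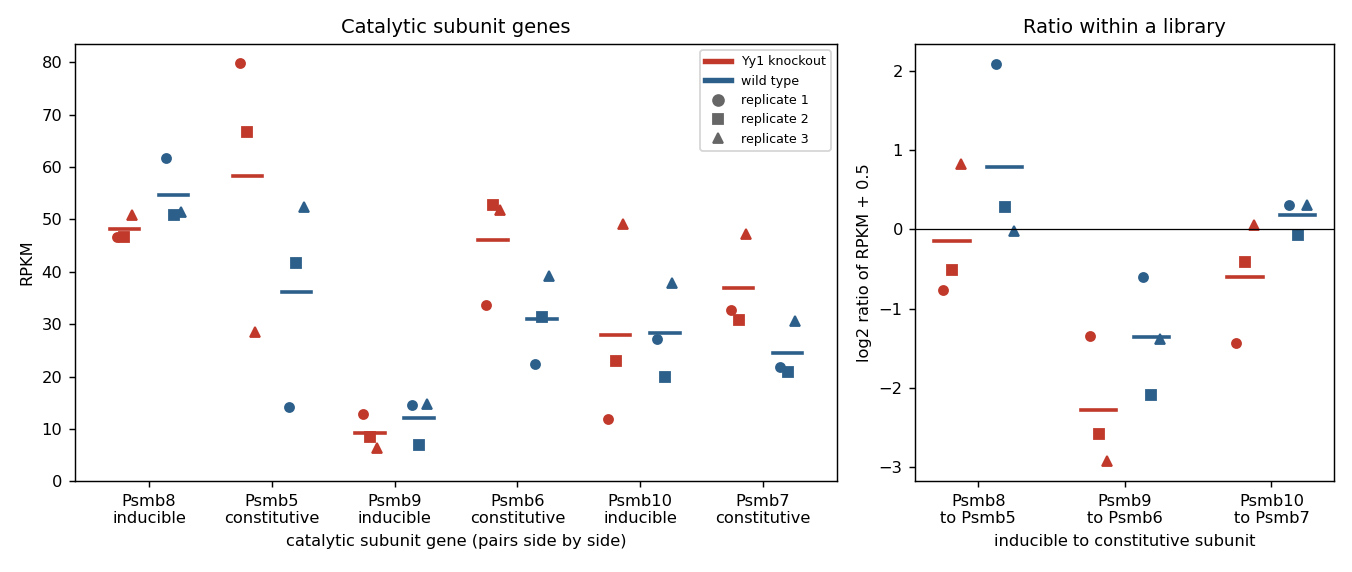
Left, RPKM of the inducible and constitutive catalytic genes side by side. Right, the log2 ratio of each pair within a library. Points are libraries, lines are group means and knockout stands left of wild type. The means of the constitutive genes are higher in knockout, and all 3 ratios have lower means in knockout with overlapping groups.

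Of the 17 genes of the 19S particle, 13 lay above 0, against 51.9% of all genes tested, and in 3 all knockout values lay above all wild-type values, against 7.63%. Psmc6 (ENSMUSG00000021832, chromosome 14: 45329788 to 45349705), an ATPase of the base, stood at 89.9, 55.9 and 69.3 RPKM in knockout, against 38.1, 44.3 and 54.5 RPKM in wild type. The lowest knockout value lay just above the highest wild-type value, and the log2 fold change was 0.64 (SE 0.23, limma adjusted p = 0.589, unadjusted 0.0271). Psmc2, also an ATPase, stood at 17.6, 23.6 and 30.5 RPKM in knockout, against 10.0, 16.8 and 29.2 RPKM in wild type. Its groups overlapped, and its log2 fold change of 0.44 was 0.07 without wild type replicate 1. The other 4 ATPase genes had log2 fold changes from -0.13 for Psmc1 to 0.25 for Psmc4, with Psmc3 and Psmc5 between them, all with overlap. Levels lay closer together in the ATPases than in the core, the highest ATPase value of a library being 2.27 to 5.12 times the lowest in knockout and 1.87 to 4.41 times in wild type. Among the 11 other 19S genes it was 10.0 to 15.9 times in knockout and 7.71 to 11.5 times in wild type. Such a ratio tends to widen with the number of genes, 6 ATPases here against 14 core genes. The lowest core gene was Psma3 or Psmb3 in every library, both with copies elsewhere.

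Psmd8 (ENSMUSG00000030591, chromosome 7: 29174188 to 29180701), a subunit of the lid, stood at 31.5, 33.6 and 38.7 RPKM in knockout, against 20.8, 27.6 and 20.1 RPKM in wild type. The groups did not overlap, and the log2 fold change was 0.60 (SE 0.21, limma adjusted p = 0.572, unadjusted 0.0220). Psmd14 (ENSMUSG00000026914, chromosome 2: 61711694 to 61800376), the protease that removes ubiquitin chains from substrates, stood at 39.6, 47.5 and 44.6 RPKM in knockout, against 22.8, 38.7 and 38.8 RPKM in wild type. The knockout values lay above the wild-type ones, with wild type replicate 1 far below the other two, and the log2 fold change of 0.43 was 0.18 without that library. Psmd1, a scaffold of the base, stood at 24.1, 26.7 and 32.3 RPKM in knockout, against 24.7, 19.5 and 14.2 RPKM in wild type. Wild type replicate 1 lay just above knockout replicate 1, and exons of Gm21972 on the same strand overlap the gene. Psmd7, the partner of Psmd14 in the lid, had the highest mean of this class, at 74.5, 80.8 and 79.2 RPKM in knockout, against 59.0, 52.9 and 81.1 RPKM in wild type. Wild type replicate 3 lay above all knockout values. Psmd4, the gene of a ubiquitin receptor, averaged 15.7 ± 4.30 RPKM in knockout and 17.7 ± 3.19 RPKM in wild type, and Psmd11 and Psmd13 likewise had lower means in knockout with overlap. Psmd2, Psmd3, Psmd6 and Psmd12 had log2 fold changes from 0.14 to 0.54, all with overlap.

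Of the chaperone genes, Psmd10, the gene of gankyrin, stood at 18.6, 24.0 and 27.0 RPKM in knockout, against 9.22, 23.3 and 25.6 RPKM in wild type. Its groups overlapped, and its log2 fold change of 0.37 was -0.087 without wild type replicate 1. Psmd5 stood at 8.18, 8.57 and 10.51 RPKM in knockout, against 7.15, 5.82 and 8.54 RPKM in wild type, with the third wild-type value inside the knockout range. Psmd9 averaged 3.22 ± 0.372 RPKM in knockout and 3.37 ± 1.43 RPKM in wild type.

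Among the activators, Psme3 (ENSMUSG00000078652, chromosome 11: 101316213 to 101323537), which encodes the nuclear activator PA28 gamma, stood at 80.9, 75.7 and 74.8 RPKM in knockout, against 65.7, 70.0 and 64.6 RPKM in wild type. The groups did not overlap and each was narrow, but the difference was small, with a log2 fold change of 0.21 (SE 0.15, limma adjusted p = 0.785). Psme1, the gene of the interferon-inducible activator subunit PA28 alpha, stood at 100.1, 91.1 and 150.4 RPKM in knockout, against 73.9, 95.8 and 115 RPKM in wild type, with overlap. Its partner Psme2, 5911 bases away on chromosome 14, was listed at 7.49 ± 5.74 RPKM in knockout and 6.55 ± 3.30 RPKM in wild type. Psme2b, on chromosome 11, matches Psme2 over a stretch of 99.4% identity and was listed higher, at 27.4, 21.4 and 34.7 RPKM in knockout, against 30.3, 29.7 and 3.88 RPKM in wild type. Both values are uncertain, because reads of such copies cannot be assigned with confidence, and the log2 fold change of Psme2b was 0.80 with all libraries and -0.13 without wild type replicate 3. Psme4, the gene of the activator PA200, averaged 14.5 ± 1.99 RPKM in knockout and 14.3 ± 3.53 RPKM in wild type. Psmf1, the gene of PI31, averaged 4.35 ± 2.55 RPKM in knockout and 4.02 ± 0.634 RPKM in wild type.

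Of the matches kept apart, Psma8 on chromosome 18 stood at 6.01, 2.70 and 4.57 RPKM in knockout, against 9.65, 9.49 and a listed 0 RPKM in wild type. It was the only one of the 45 genes listed at 0 in any library, and its mean was lower in knockout, at 4.42 RPKM against 6.38 RPKM in wild type, while its log2 fold change was above 0, at 0.35. That value rests on the listed 0 of wild type replicate 3: it was -1.09 without that library, 1.03 with a pseudocount of 0.1, 0.12 with a pseudocount of 1, 0.11 after quantile normalization and 2.002 with limma-voom, so no direction is given for Psma8. Psmc3ip stood at 11.7, 9.18 and 8.48 RPKM in knockout, against 6.77, 9.42 and 7.14 RPKM in wild type, with overlap and a log2 fold change of 0.32, which was 0.18 without knockout replicate 1. In all, 15 of the 45 genes had at least 1 copy elsewhere in the genome with a stretch of at least 300 bases at 90% identity or more. Their median log2 fold change was 0.25, with 10 of 15 above 0, against 0.19 and 22 of 30 for the genes without a copy.

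The other genes of the pathway did not lie to one side. Of 33 genes for assembly factors, proteasome-bound proteins, proteasome gene regulators, ubiquitin shuttles, ubiquitin and its activating enzymes, 31 were in the table and 30 were tested. With limma 0 passed, 15 lay above 0 and 15 below, and the median log2 fold change was -0.01. Among those with the smallest p were Vcp, the gene of the unfoldase p97, at 74.9 ± 10.9 RPKM in knockout and 57.8 ± 9.04 RPKM in wild type, and Uchl5, the gene of a proteasome-bound deubiquitinase, at 34.4 ± 5.53 RPKM in knockout and 45.0 ± 10.1 RPKM in wild type. Nfe2l1, the gene of NRF1, averaged 24.4 ± 6.99 RPKM in knockout and 28.2 ± 6.96 RPKM in wild type.

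Of 18 interferon and class I presentation genes, 17 were tested. With limma 0 passed, 10 lay above 0 and 7 below, and the median log2 fold change was 0.04. The smallest p belonged to Ifit1, an antiviral interferon-stimulated gene, at 12.1, 13.7 and 14.5 RPKM in knockout, against 4.17, 4.72 and 7.002 RPKM in wild type, with a log2 fold change of 1.29 (SE 0.31, limma adjusted p = 0.429). Usp18, a negative regulator of interferon signalling and the other gene with an unadjusted p under 0.05, had a log2 fold change of 1.40 with overlap, and Bst2, the gene of tetherin, one of 0.58 without overlap. Tap1, whose exons overlap Psmb9, averaged 21.7 ± 4.04 RPKM in knockout and 20.5 ± 4.26 RPKM in wild type.

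No marker gene had a limma adjusted p under 0.05, and the smallest was 0.323. Summed over 10 genes listed as stem cell markers, the level was 396 to 424 RPKM in knockout and 572 to 642 RPKM in wild type. Cd48, 1 of the 10, marks these cells by its absence, since the protocols name CD48-negative cells. It was listed at 0 in knockout replicate 1 and in wild type replicates 1 and 3. Summed over 6 megakaryocyte markers, the level was 51.3 to 104 RPKM in knockout and 19.5 to 36.5 RPKM in wild type. Gp1bb was listed at 0 in knockout replicate 3 and wild type replicates 1 and 3. Mki67, which marks dividing cells, averaged 153 ± 8.51 RPKM in knockout and 54.0 ± 22.4 RPKM in wild type (limma adjusted p = 0.324). The sum of the erythroid list overlapped (200 to 267 RPKM in knockout, 207 to 260.0 RPKM in wild type, 7 of 10 genes in the table). Of its 5 tested genes, all knockout values lay above all wild-type values in 1 and below them in 1. Over all genes tested the shares were 7.63% and 6.87%. Hbb-bs, a globin gene, averaged 41.1 ± 33.3 RPKM in knockout and 10.98 ± 6.48 RPKM in wild type, and Car2, a carbonic anhydrase gene, averaged 138 ± 13.1 RPKM in knockout and 184 ± 17.8 RPKM in wild type (limma adjusted p = 0.619 for each, genes chosen after their values were seen). The Hbb-bs values were 28.8, 15.6 and 78.8 RPKM in knockout, against 3.50, 14.4 and 15.0 RPKM in wild type. Hbb-bt, another globin gene of the list, overlapped, at 31.8 ± 21.3 RPKM in knockout and 30.9 ± 13.0 RPKM in wild type. Of the 5 erythroid genes tested, 3 had a log2 fold change above 0 and 2 below. The sums overlapped for the granulocyte list (35.2 to 299 RPKM in knockout, 17.7 to 171 RPKM in wild type, 8 of 9 in the table) and the monocyte and macrophage list (71.2 to 108 RPKM in knockout, 84.1 to 129.6 RPKM in wild type, 2 of 6). They also overlapped for the dendritic cell list (31.4 to 51.7 RPKM in knockout, 45.7 to 65.0 RPKM in wild type, 4 of 6), for Cd79b, the B cell marker in the table (9.15 to 21.4 RPKM in knockout, 13.3 to 28.6 RPKM in wild type), and for Nkg7, the T and NK cell marker in the table (3.99 to 8.72 RPKM in knockout, 4.76 to 15.3 RPKM in wild type). In bulk libraries, fewer cells of a type and less RNA per cell cannot be told apart, and the part of these features in the proteasome values was not tested.

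The counts were also taken with each library left out. The library labelled Yy1 knockout replicate 1 was in doubt for its Yy1 level, and wild type replicate 3 for its genes listed at 0. Knockout replicate 3, at 28.5 RPKM of Yy1, also lay close to the lowest wild-type value, 31.6 RPKM. Yy1 itself had a log2 fold change of -0.66 (SE 0.32, limma adjusted p = 0.680). Wild type replicate 1 had the fewest estimated reads in the listed genes, 15102998. Leaving it out moved the log2 fold changes of Psmb5, Psmc2 and Psmd10 to 0.19, 0.07 and -0.087. Without knockout replicate 1, 34 of the 45 genes lay above 0, against 53.1% of all genes tested. All knockout values then lay above all wild-type values in 14 genes and below them in 2, against 11.6% and 10.5% of all genes, and 2 of 3 immunoproteasome genes lay below 0. At an unadjusted p under 0.05, 3 genes were higher and 0 lower, against 3.11% and 2.3%. Without wild type replicate 3, 32 lay above 0, against 50.2%, and the knockout values lay above in 18 genes and below in 4, against 13.2% and 13.6%. At an unadjusted p under 0.05, 7 were then higher and 1 was lower, against 5.26% and 3.31% of all genes. In that setting the median log2 fold change of the ATPases was 0.46 and that of the other 19S genes 0.34, and 2 of 3 immunoproteasome genes lay below 0. Without wild type replicate 1, 29 of the 45 lay above 0, against 51.8%, the ATPase and other 19S medians were 0.07 and 0.11, and the knockout values lay above in 9 genes and below in 3, against 13.2% and 11.9%. Without wild type replicate 2, 32 lay above 0, against 52.4%, and the knockout values lay above in 10 genes and below in 3, against 14.2% and 12.8%. Without knockout replicate 2, 34 lay above 0, against 50.8%, and the knockout values lay above in 9 genes and below in 1, against 11.8% and 11.3%. Without knockout replicate 3, 29 lay above 0, against 53%, and the knockout values lay above in 9 genes and below in 3, against 12.4% and 10.8%. At an unadjusted p under 0.05, 3 genes were higher and 0 lower without wild type replicate 1, against 4.75% and 2.75% of all genes. The same counts were found without wild type replicate 2, against 5.75% and 3.33%, and without knockout replicate 2, against 3.29% and 2.82%. Without knockout replicate 3, 2 were higher and 0 lower, against 2.86% and 2.59%.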

How the data were processed

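RNA was sequenced from 3 libraries labelled Yy1 knockout and 3 labelled wild type, prepared with the Ovation RNA-Seq System V2, an amplifying kit, per the labels' protocols. The authors used Subread, featureCounts, edgeR and limma on mm10, per the submitters' processing notes, and the sources used here do not give versions, settings or strand. The library columns of the deposited table hold RPKM; the unit was found from the values, since multiplied by exonic gene length (GENCODE M21, GRCm38, the assembly of mm10) the values of 71.8% of 15465 genes were whole multiples of 1 step per library, within 0.02 reads. The reads of the other genes, 16 of the proteasome genes included, are estimates. The deposited log2 fold change, p-value and adjusted p-value come from a comparison made by the authors, per the file headers.

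Genes with at least 1 RPKM in 3 libraries were tested with limma 3.58.1 (R 4.3.3) on log2(RPKM + 0.5), with a variance trend, without robust fitting and with Benjamini-Hochberg adjustment over all of them. The fold changes understate those of low genes. Ratios were tested with exact permutation tests (scipy 1.17.1). Copies were found with blastn 2.17.0. The tests were checked on simulated reads. Genes named with every library's value were the 6 catalytic genes, the highest and the 2 of smallest p in each class, those without overlap, and those listed at 0, and others are given by mean or range. Psmc1, Psmc4, Psma2 to Psma4, Psmb2 to Psmb4 and the other genes given by means or ranges were named after their values were seen. A gene of the pathway list is not reported here. The members and lists were chosen with earlier results of these data known. Alternatives were another pseudocount, filter or normalization, no trend, limma-voom, a replicate block and leaving out each library. Precision is limited by 3 libraries per group and, for low genes, by an estimated 15102998 to 21757053 reads in the listed genes of a library.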

Additional observations from a re-analysis of the deposited data

How the results depend on the processing

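Limma called 0 of all genes, with 1027 at an unadjusted p under 0.05, and 0 proteasome genes. Limma-voom on recovered reads called 8 genes in all, none of the 45. The labels number the libraries 1 to 3 in both groups, but same-numbered libraries did not deviate together (r across genes 0.02, 0.06 and 0.05), so the numbers were not taken as pairs. A replicate block in limma called 0 genes. The block with limma-voom, an alternative chosen after seeing the data, called 72 genes, 1 of them a proteasome gene (Psmb1, adjusted p = 0.0484). Leaving out 1 library at a time gave 0 to 1 calls over all genes and 0 among the 45, among the pathway genes and among the interferon genes. The class medians then ranged from 0.32 to 0.49 (core), -0.42 to -0.16 (immunoproteasome), 0.07 to 0.46 (ATPases), 0.11 to 0.34 (other 19S) and -0.08 to 0.33 (activators and PI31), and the ratio differences from -1.42 to -0.28 (Psmb8 to Psmb5), -1.39 to -0.55 (Psmb9 to Psmb6) and -1.11 to -0.36 (Psmb10 to Psmb7). Among the genes given by library, the sign turned in Psma8 (-1.09 to 1.08), Psmb10 (-0.72 to 0.29), Psmd10 (-0.087 to 0.62) and Psme2b (-0.13 to 1.28), and the cause was not tested. Under the other pseudocounts, filters, quantile normalization, no trend, voom and the block, the 5 class medians kept their sign, as did the 3 ratio differences under the pseudocounts, quantile normalization and the block. The other filters, the trend and voom were not run for the ratios. Standard errors of single proteasome genes ran from 0.15 to 1.13 on the log2 scale, which limits what 3 libraries a group can show.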
